A study of Mus musculus with 7 samples.

Results

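Wnt ligands, their Frizzled receptors, the secreted antagonists of the pathway and the R-spondins were followed through maps of H3K27me3, the repressive trimethyl mark at lysine 27 of histone H3 that Polycomb repressive complex 2 writes. The 43 genes were chosen by name and comprised 19 Wnt genes, 10 Fzd genes, 10 antagonist genes (Sfrp1, Sfrp2, Sfrp4, Sfrp5, Frzb, Wif1 and Dkk1 to Dkk4) and 4 Rspo genes. All 43 were found among the 21631 protein-coding genes that RefSeq places on autosomes or chromosome X. Chromatin came from epidermal progenitors of mice at postnatal day 0, sorted from back skin as EpCAM-positive, Sca1-positive and α6-integrin-high cells of the interfollicular epidermis. The Ring1a/b 2KO cells, which lack Ring1a and Ring1b, the ubiquitin ligases of Polycomb repressive complex 1 (genes Ring1 and Rnf2), were set against control cells. Each genotype had 2 labelled immunoprecipitation libraries and 1 deposited list of called peaks. The titles of the 2KO libraries say H3K27me1, but H3K27me3 is given as their antibody and in their peak list, and it was the reading used. How the genes were deleted, and which alleles the control animals carry, is not given in the sources used here. Libraries of Eed cKO cells and the inputs were not analysed here.

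Wnt proteins are secreted lipid-modified ligands that bind Frizzled receptors together with Lrp5 or Lrp6, which stabilises β-catenin or, with other co-receptors, signals without it. Sfrp proteins, Frzb and Wif1 bind Wnt ligands outside the cell, Dkk1 blocks Lrp5 and Lrp6, and R-spondins raise Wnt signalling through Lgr4, Lgr5 and Lgr6 by removing the receptor ligases Znrf3 and Rnf43. In skin, Wnt signals made by the epidermis and the dermis induce hair follicles and sustain basal progenitors.

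A gene was called marked in a list when a peak overlapped its start or end extended by 1 kb. The 2KO list held 2340 peaks over 16.36 Mb and the control list 3631 peaks over 24.84 Mb. The lists give positions only, so depth is unknown, no value per replicate exists and no test between genotypes was possible. A gene without a called peak is not shown to lack the mark. Intervals are 95% Wilson intervals that cover counting error only, and genes are not replicates of a genotype. Of 8 basal epidermal markers (Krt5, Krt14, Trp63 and others), 0 were marked in either list. Over all genes, 6.63% were marked in the 2KO list and 10.1% in the control list. A count of 0 of 8 is thus usual for a small set of genes and does not check the identity of the cells. Markers of other cell types were marked in part. In the 2KO list these were 2 of 5 dermal fibroblast, 1 of 4 melanocyte, 1 of 3 immune, 1 of 3 endothelial and 3 of 4 Merkel cell markers. In the control list they were 4 dermal fibroblast, 2 melanocyte, 0 immune, 1 endothelial and 3 Merkel cell markers. H3K27me3 over a gene does not measure its RNA. Ring1, Rnf2 and Eed were unmarked in both lists, so the lists do not check the genotypes.

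Of the 43 genes, 11 were marked in 2KO cells (25.6%, 14.9 to 40.2) and 20 in control cells (46.5%, 32.5 to 61.1). The background over all protein-coding genes was 6.63% in the 2KO list and 10.1% in the control list. All 11 genes marked in 2KO cells were also marked in control cells, so 55% of the control-marked genes (34.2 to 74.2) were in both lists. Over all genes this share was 55.5%, so the kept share of the Wnt genes stood at the background. With equal numbers of the widest peaks in each list, the kept share was 53.3% of these genes and 63% of all genes. With all peaks, none of the 43 was marked in the 2KO list only, against 1.04% of all genes. Of the 43, 3 were when only peaks of at least 5 kb were used (Rspo4, Dkk2 and Sfrp4) and 3 with equal numbers (Rspo4, Wnt2b and Sfrp4). These calls follow from the settings, which leave out the narrow control peaks of these genes (2.98 to 4.59 kb) and keep their 2KO peaks. Equal numbers trim the control list alone, since all 2340 peaks of the 2KO list stay. By role, 2 of 4 R-spondins, 6 of 10 antagonists, 3 of 19 Wnt ligands and 0 of 10 Frizzled receptors were marked in 2KO cells. In control cells these counts were 4 R-spondins, 8 antagonists, 6 ligands and 2 receptors. In a sorted population, fewer marked cells and less mark per cell cannot be told apart. Whether the roles differ was not tested, since the genes share a few families and each genotype had 1 list.

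**Figure D1:**
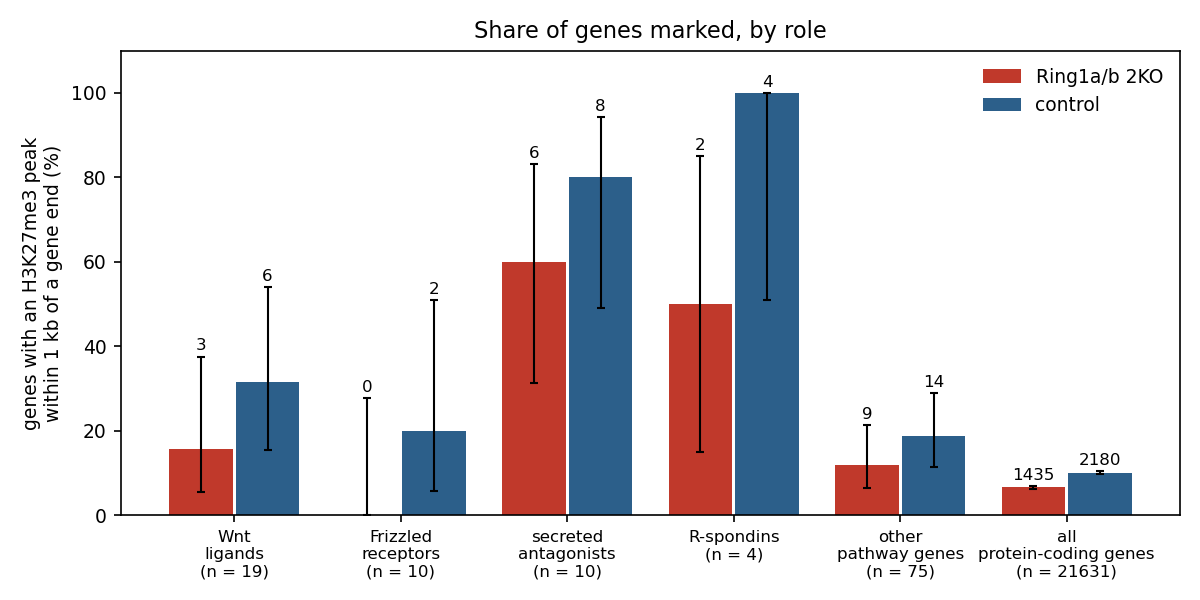
Share of genes with an H3K27me3 peak within 1 kb of a gene end, in percent, for 2KO (red) and control (blue) cells by role. Bars give the share, error bars the 95% Wilson interval, and numbers the count of marked genes. Antagonists stood at 60% in 2KO and 80% in control cells, and all protein-coding genes at 6.63 and 10.1%.

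Among the ligands, Wnt1, Wnt2b and Wnt8b were marked in both lists, and Wnt5a, Wnt9a and Wnt11 in the control list only. Wnt1, a ligand of the midbrain and hindbrain boundary, lay wholly inside a domain of 22.1 kb in 2KO cells (chr15:98788367-98810508) and of 22.1 kb in control cells (chr15:98788329-98810428). The left edges of these peaks differed by 38 bp and the right edges by 80 bp. The domain also covered Ddn, a neighbouring gene that encodes the synaptic protein dendrin. The adjacent ligand gene Wnt10b, active in hair follicle placodes, lies 11.7 kb from Wnt1 and was unmarked in both lists. Its distance to the edge of the Wnt1 domain was 10.2 kb in 2KO cells and 10.1 kb in control cells. The edge that separates both genes was thus called at nearly the same base in both genotypes.

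The bases before the start sites of Wnt1 and Wnt10b are shown to compare a marked gene with its unmarked neighbour, and that of Wnt11 to set a gene of the control list only beside them. Each is the 250 bases 5′ of the RefSeq start site on GRCm38.p6 (the build also called mm10), with CG dinucleotides in capitals. They lie at chr15:98789607-98789856, plus strand (Wnt1), chr15:98778151-98778400, minus strand (Wnt10b) and chr7:98834862-98835111, plus strand (Wnt11).
Wnt1: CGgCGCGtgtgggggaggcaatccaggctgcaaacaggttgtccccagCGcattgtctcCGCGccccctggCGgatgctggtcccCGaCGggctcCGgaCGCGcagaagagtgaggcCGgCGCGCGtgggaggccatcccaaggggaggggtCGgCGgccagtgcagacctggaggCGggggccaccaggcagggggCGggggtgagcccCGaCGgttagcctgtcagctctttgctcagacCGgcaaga
Wnt10b: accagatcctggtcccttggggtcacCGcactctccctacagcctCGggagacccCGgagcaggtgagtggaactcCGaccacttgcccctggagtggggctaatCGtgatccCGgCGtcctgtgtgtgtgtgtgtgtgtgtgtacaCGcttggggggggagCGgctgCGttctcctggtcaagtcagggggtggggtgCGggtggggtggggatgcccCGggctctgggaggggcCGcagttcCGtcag
Wnt11: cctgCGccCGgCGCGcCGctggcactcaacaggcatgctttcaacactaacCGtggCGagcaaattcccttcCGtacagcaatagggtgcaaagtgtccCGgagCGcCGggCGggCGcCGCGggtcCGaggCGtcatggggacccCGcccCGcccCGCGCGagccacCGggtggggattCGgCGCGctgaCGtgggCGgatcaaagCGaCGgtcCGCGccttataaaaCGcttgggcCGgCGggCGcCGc
These held 23, 14 and 37 CG dinucleotides. GC content was 71.6% before Wnt1, 66.8% before Wnt10b and 70.8% before Wnt11.

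Wnt2b, a ligand of the eye margin and other tissues, had a peak of 4.13 kb in 2KO cells and 3.52 kb in control cells. Both covered its start site, and 86.6% of the control peak lay under the 2KO peak. Wnt8b, a forebrain ligand, was the only one of the 43 with several peaks in each list. Its gene carried peaks of 9.51 and 14.2 kb in 2KO cells, against 6.87 and 8.69 kb in control cells. The annotated start site lay under a 2KO peak (chr19:44492653-44502161), whereas the first control peak (chr19:44498600-44505468) began inside the gene. Summed over the gene, 23.7 kb were called in 2KO and 15.6 kb in control cells, a log2 ratio of 0.61. Counting only peaks at the gene ends, as in the summaries over genes, the lengths were 23.7 kb in 2KO and 8.69 kb in control cells, a log2 ratio of 1.45.

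The 3 ligand genes of the control list only had no 2KO peak over any of their control bases. Wnt5a, the main ligand of signalling without β-catenin in limb and skin mesenchyme, had its nearest 2KO peak 1187 kb away and lay at a 15.2 kb control domain (chr14:28500910-28516074). Wnt11, which acts in the branching kidney, had its nearest 2KO peak 407 kb away and a control peak of 6.15 kb (chr7:98831162-98837309). Wnt9a, a ligand of developing joints, had its nearest 2KO peak 127 kb away and a control peak of 3.80 kb (chr11:59304527-59308330) over its start site. Its neighbour Wnt3a, 16.1 kb away, was unmarked and lay 13.8 kb from the nearest control peak.

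The other 13 ligand genes (Wnt2, Wnt3, Wnt3a, Wnt4, Wnt5b, Wnt6, Wnt7a, Wnt7b, Wnt8a, Wnt9b, Wnt10a, Wnt10b and Wnt16) were unmarked in both lists. They include ligands known to be made in epidermis or hair follicle, such as Wnt3, Wnt4, Wnt7b, Wnt10a and Wnt10b, beside others such as Wnt2 and Wnt8a. To be unmarked was the usual state, with 19226 of all 21631 genes in neither list. Whether it goes with expression was not tested. The genes of 2 further neighbouring pairs were unmarked together, Wnt6 with Wnt10a (6.70 kb apart) and the overlapping Wnt9b and Wnt3. No ligand pair shared a peak in either list.

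Of the Frizzled receptors, only Fzd4 and Fzd9 were marked, and neither had a 2KO peak. Fzd4, the receptor of Norrin in retinal vessels, had its nearest 2KO peak 1067 kb away and a control peak of 6.43 kb (chr7:89399028-89405456) that also reached Tmem135. Fzd9 had its nearest 2KO peak 53.4 kb away and a control peak of 2.33 kb (chr5:135249348-135251679), the narrowest of the 20. The other 8 receptor genes (Fzd1, Fzd2, Fzd3, Fzd5, Fzd6, Fzd7, Fzd8 and Fzd10) were unmarked, and the closest peak to any of them lay 56.5 kb away, at Fzd2 in the control list. Among these, Fzd6, which orients hairs in mouse skin, lay 621 kb from a 2KO peak and 156 kb from a control peak.

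Of the antagonists, Dkk1, Dkk2, Wif1, Sfrp1, Sfrp4 and Sfrp5 were marked in both lists. The 4 with the widest control peaks had shorter 2KO peaks, and the other 2 had longer ones. Dkk1 lay wholly inside a peak of 11.2 kb in 2KO cells (chr19:30543401-30554577) and 15.1 kb in control cells (chr19:30539325-30554439). The right edges, on the side of the start site, differed by 138 bp, whereas the 2KO peak began 4076 bp further in on the left. Wif1, which binds Wnt ligands directly, had 6.41 kb in 2KO and 9.61 kb in control cells, with the 2KO peak inside the control peak. Sfrp5 had 5.47 kb in 2KO and 6.16 kb in control cells. Sfrp1, a Wnt-binding antagonist with a Frizzled-like domain, had 2.41 kb in 2KO cells (chr8:23408774-23411182) and 5.74 kb in control cells (chr8:23408687-23414426).

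At Sfrp1 the 2KO peak ended 201 bp before the gene, whereas the control peak reached into it, so its call in 2KO cells rests on the 1 kb window. The 2KO peak covered 42.0% of the control peak, the lowest share of the 11 genes in both lists. The only other call that rests on the window was that of Rspo3 in control cells. Its control peak lay wholly inside the gene, 261 bp from the gene end. No gene of the 43 had its nearest peak between these distances and the 10.1 kb of Wnt10b. Dkk2 had 6.33 kb in 2KO and 4.59 kb in control cells (log2 ratio 0.47), and Sfrp4 5.58 kb in 2KO and 3.31 kb in control cells (log2 ratio 0.75). In both, the 2KO peak covered the whole control peak.

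Sfrp2 and Frzb, which encodes a Wnt-binding protein of cartilage, were the other marked antagonist genes. Their nearest 2KO peaks were 635 kb from Sfrp2 and 948 kb from Frzb. Control peaks of 4.40 kb at Sfrp2 (chr3:83764784-83769184) and 2.73 kb at Frzb (chr2:80444774-80447498) covered their start sites. Dkk3 and Dkk4, the second of which is made in hair follicle placodes, were unmarked, and the closest peak lay 176 kb from Dkk4, in the control list.

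Rspo2 and Rspo4 were marked in 2KO cells, and all 4 R-spondin genes in control cells. Rspo2, which acts in limb and lung development, had peaks of 6.70 kb in 2KO (chr15:43166794-43173495) and 6.59 kb in control cells (chr15:43167036-43173623). Rspo4, whose human counterpart is required for nails, had 6.10 kb in 2KO (chr2:151840357-151846460) and 2.98 kb in control cells (chr2:151841452-151844435), a log2 ratio of 1.03, and its 2KO peak reached beyond the control peak on both sides. Rspo1, a factor of ovary differentiation, had its nearest 2KO peak 83.9 kb away and a control domain of 11.9 kb (chr4:124980565-124992415). Rspo3 had its nearest 2KO peak 306 kb away and a control peak of 4.04 kb (chr10:29531567-29535606).

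The promoters of Dkk1, Rspo4 and Rspo1 are shown because the start sites of Dkk1 and Rspo4 lay under a 2KO peak and all 3 under a control peak. They cover chr19:30549497-30549746, minus strand (Dkk1), chr2:151842677-151842926, plus strand (Rspo4) and chr4:124986180-124986429, plus strand (Rspo1), each again 250 bases with CG dinucleotides in capitals.
Dkk1: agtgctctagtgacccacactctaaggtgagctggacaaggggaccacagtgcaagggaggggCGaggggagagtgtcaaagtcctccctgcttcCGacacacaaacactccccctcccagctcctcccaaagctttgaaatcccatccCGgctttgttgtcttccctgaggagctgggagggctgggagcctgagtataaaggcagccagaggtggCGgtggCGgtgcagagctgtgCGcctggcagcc
Rspo4: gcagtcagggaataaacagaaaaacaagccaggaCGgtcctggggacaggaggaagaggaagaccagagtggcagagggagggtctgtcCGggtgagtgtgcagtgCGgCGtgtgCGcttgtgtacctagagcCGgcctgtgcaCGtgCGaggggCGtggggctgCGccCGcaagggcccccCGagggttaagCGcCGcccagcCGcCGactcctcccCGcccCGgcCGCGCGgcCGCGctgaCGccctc
Rspo1: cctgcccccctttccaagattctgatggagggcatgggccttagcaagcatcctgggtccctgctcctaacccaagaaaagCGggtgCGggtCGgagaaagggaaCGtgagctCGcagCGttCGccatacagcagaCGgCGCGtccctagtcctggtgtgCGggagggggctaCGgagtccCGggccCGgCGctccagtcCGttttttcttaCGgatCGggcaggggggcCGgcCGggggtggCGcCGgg
They held 6, 24 and 22 CG dinucleotides. Dkk1 was thus marked in both genotypes with few CG dinucleotides in these 250 bases, and Rspo4 with a number close to that of Rspo1. Bases downstream of the start sites were not counted.

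**Figure D2:**
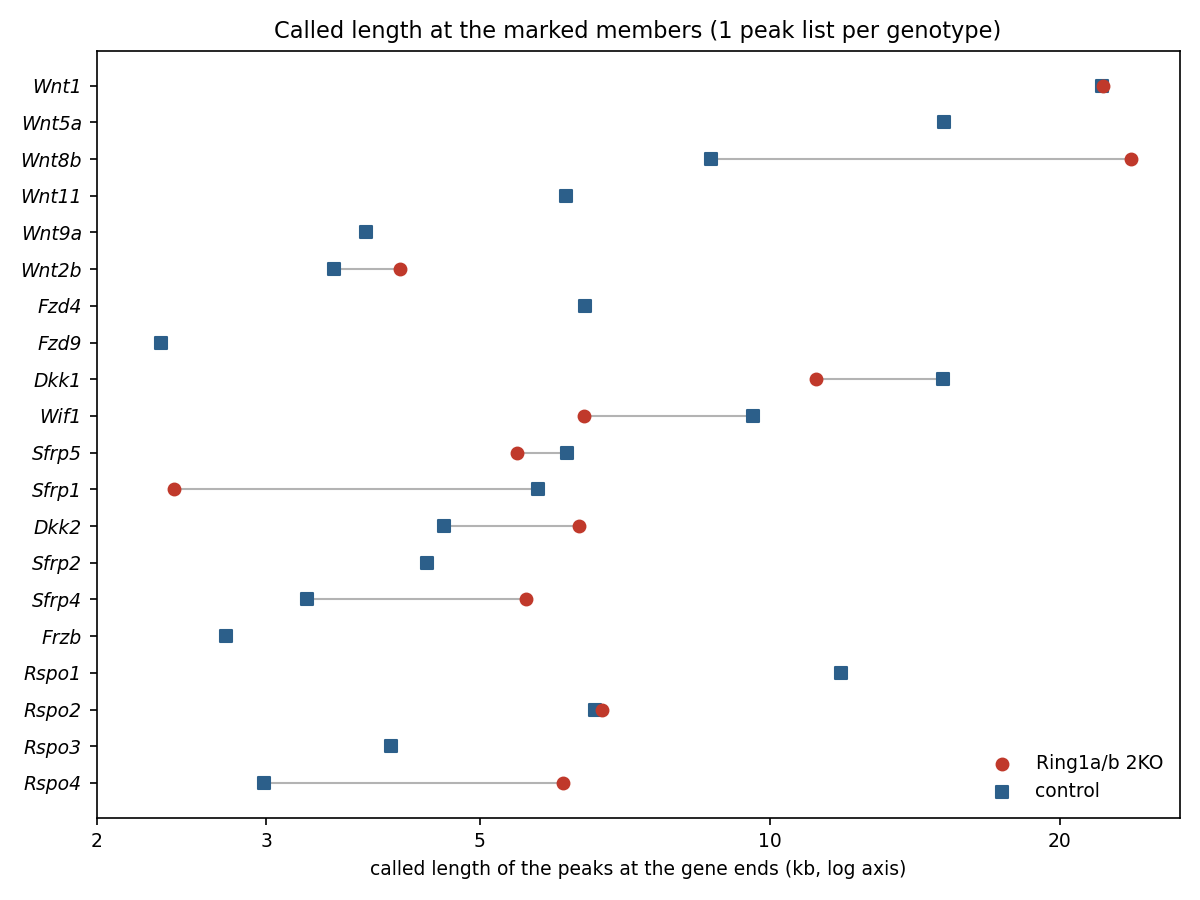
Called length of the peaks at the gene ends of the 20 marked genes, in kb on a log axis, for 2KO (red circles) and control (blue squares) cells, with 1 peak list per genotype. The 9 genes with a square alone were marked in the control list only. Wnt1 measured 22.1 kb in both, and Sfrp1 2.41 kb in 2KO and 5.74 kb in control cells.

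Over the 11 genes in both lists, 7 had a longer called length in 2KO cells and 4, all antagonists, a shorter one, with a median log2 ratio of 2KO to control of 0.02. The median of these Wnt pathway genes turned to -0.09 when only the widest peaks, in equal numbers, or only peaks of at least 5 kb were used. Both settings leave out the narrow control peaks of Rspo4, Wnt2b and Sfrp4, whose 2KO peaks were longer. The 5 kb setting also drops Dkk2 (longer in 2KO cells) and Sfrp1 (shorter) from the genes in both lists. Over all genes in both lists the median was 0.08, with 682 longer and 528 shorter in 2KO cells. By bases, 76.5 of the 145.3 kb under the 20 control peaks lay under 2KO peaks (52.6%), compared with 55.5% at the control peaks of all genes. Control peaks of the 9 genes in the control list only ranged from 2.33 to 15.2 kb (median 4.40), and those of the 11 genes in both lists from 2.98 to 22.1 kb (median 6.16), so the ranges overlapped. Over all genes these medians were 4576 and 6840 bp. At 9 of 20 genes no control base was under a 2KO peak, at 1 gene (Sfrp1) under 50% were, and at 10 genes 50% or more. Over all 2180 control-marked genes, 892 had no base, 161 under 50% and 1127 at least 50% under 2KO peaks.

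**Figure D3:**
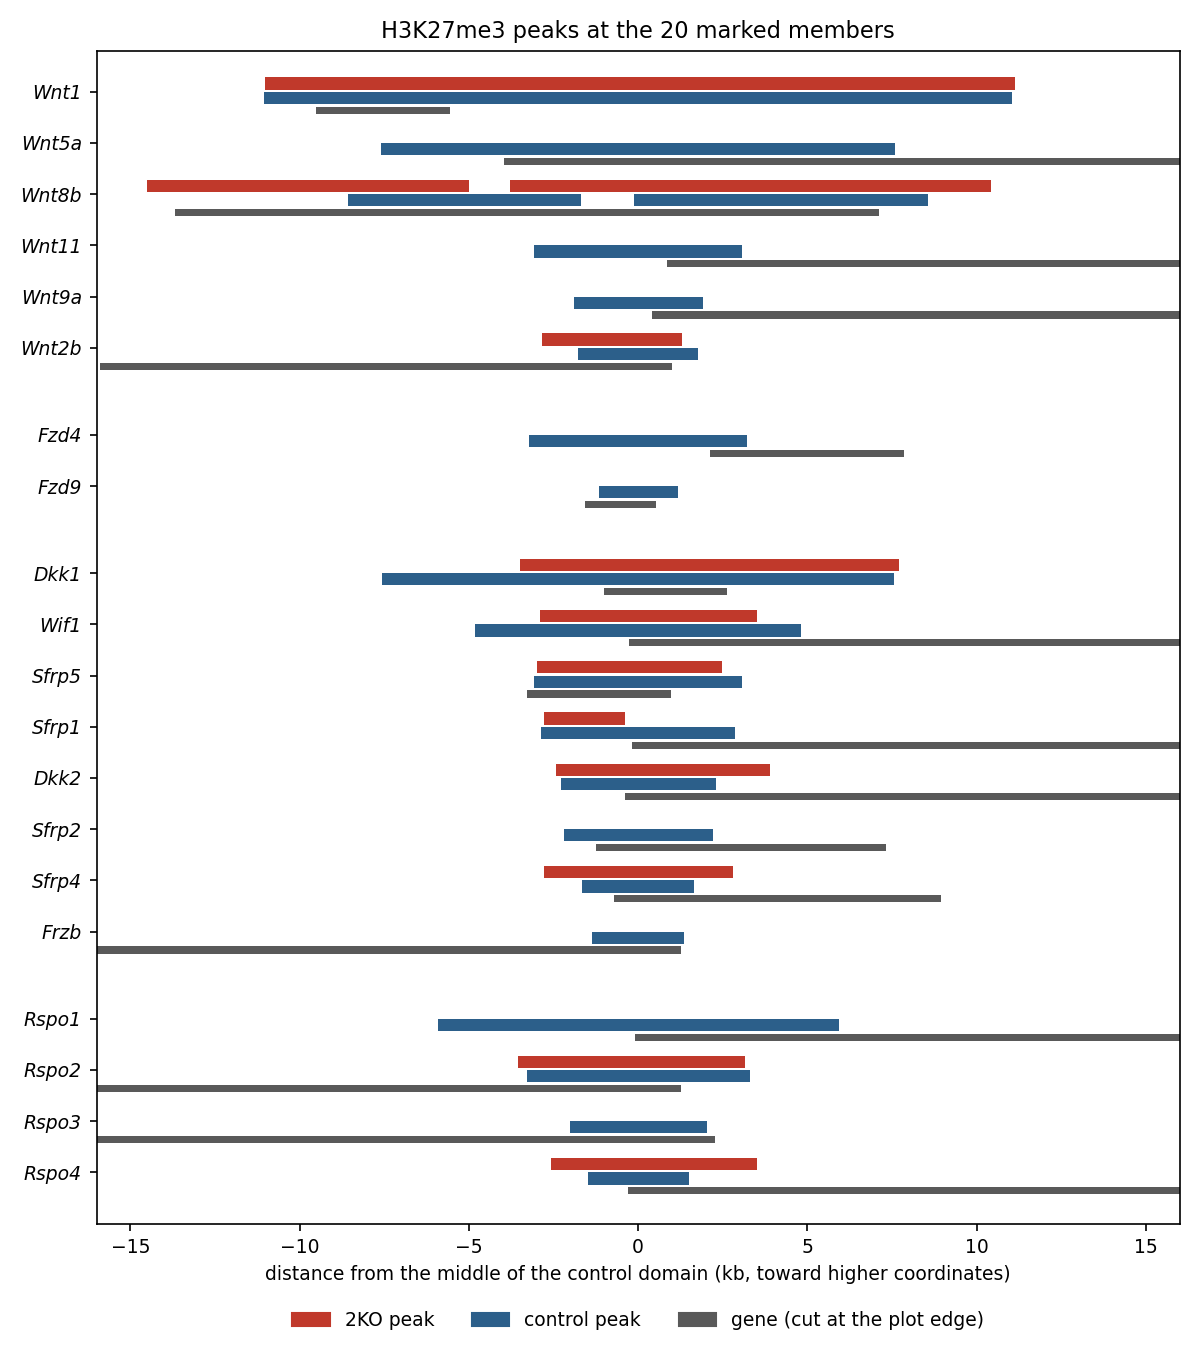
Peaks of 2KO (red) and control (blue) cells at the 20 marked genes, with the gene body in grey, drawn to scale around the middle of the control domain (x axis in kb, rising with the genome coordinate). Edges nearly coincided at Wnt1 and Rspo2, the 2KO peak was longer at Rspo4 and Sfrp4 and shorter at Wif1 and Dkk1, and 9 genes had no red bar.

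The start site and strand were known for 29 of the 43 genes. All 8 of these that were marked in 2KO cells had the start site under a 2KO peak, and 14 of the 15 marked in control cells had it under a control peak, the exception being Wnt8b. Over all genes with a start site, the shares were 66.9% of 1087 in 2KO cells and 75.8% of 1633 in control cells. The covering peaks reached a median of 4.12 kb downstream of the start site and 1.78 kb before it in 2KO cells (8 genes). In control cells the reach was 2.70 kb downstream and 2.02 kb before the start site (14 genes). The downstream reach was not cut at the gene end, which the peaks passed at Wnt1 and Dkk1. These medians rest on different genes. Over the 7 genes whose start site lay under a peak in both lists, the downstream reach was 3.97 kb in 2KO and 4.06 kb in control cells. The 2KO peak reached further downstream of the start site than before it at 8 of 8 genes. The control peak did so at 11 of 14, the exceptions being Fzd4, Wnt11 and Wnt9a. All 3 of these were in the control list only. Over all genes the share was 64.8% in 2KO and 67.4% in control cells.

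The CG content of the promoters overlapped between the classes of mark. The ratio of observed to expected CpG in the 250 bases before the start had a median of 0.70 for the 8 genes in both lists (0.26 to 0.89). It was 0.80 for the 7 genes in the control list only (0.64 to 1.18) and 0.78 for the 14 unmarked genes (0.42 to 1.02), so the ranges overlapped. The medians over all genes of these classes were 0.62, 0.67 and 0.53. The lowest ratios belonged to Dkk1 (0.26) and Wnt8b (0.34), both in both lists, and the highest to Fzd9 (1.18) and Wnt11 (1.18), both in the control list only. The sequence CGCGCG, which is its own reverse complement, was found in 9 of 29 promoters (31%) and in 12.4% of all 17274 promoters. The 29 promoters were also richer in GC (median 69.6% against 55.6% of all) and in CG dinucleotides (median 22 against 10). Promoters of like GC content were not compared. By class, CGCGCG was found in 37.5% of the genes in both lists, 28.6% in the control list only and 28.6% of the unmarked genes. The TCF/LEF motif ATCAAAG, searched on both strands and unable to overlap CGCGCG, was found in 1 of 29 (Wnt11) and in 2.93% of all. A match is a description of the letters and no evidence of binding.

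**Figure D4:**
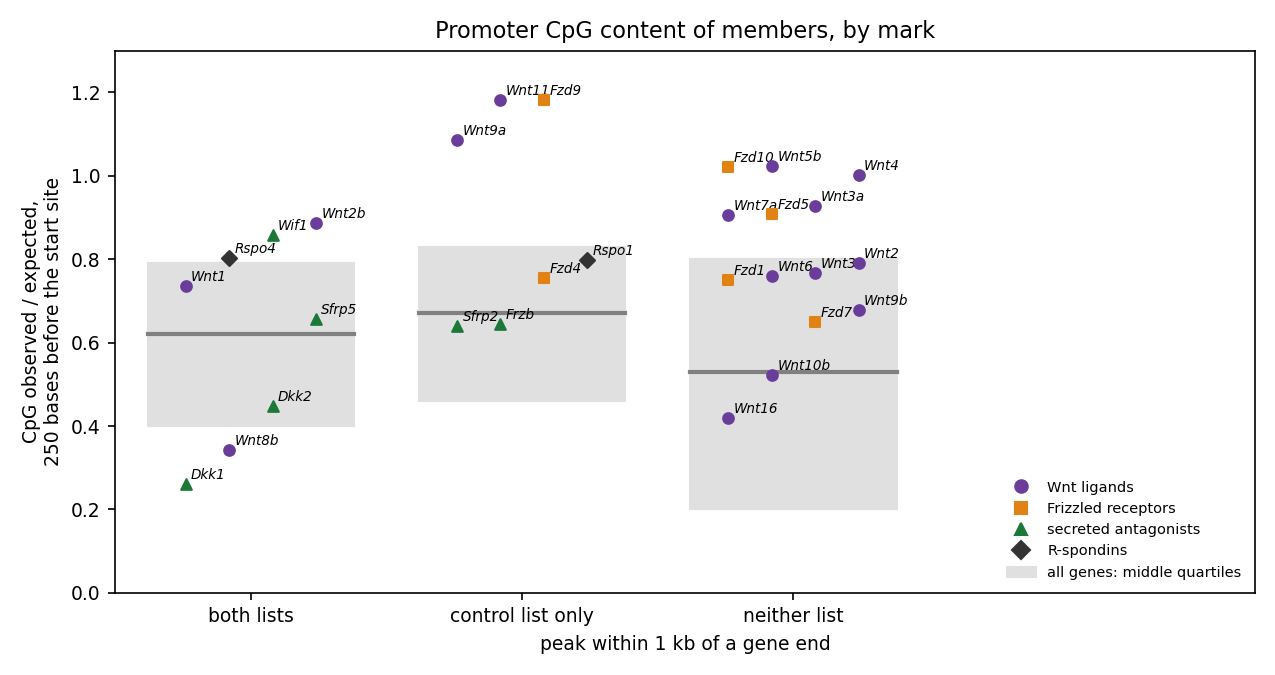
Ratio of observed to expected CpG in the 250 bases before the start site of 29 genes, by class of mark, with symbols for the roles. Grey boxes give the middle quartiles and grey lines the medians of all protein-coding genes in each class (0.62, 0.67 and 0.53). Members of the 3 classes overlap, with Dkk1 lowest at 0.26.

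Other genes of the pathway were counted in 5 lists of 75 genes. Of these, 9 were marked in 2KO cells (12%) and 14 in control cells (18.7%), 8 of them in both lists. Over all genes the shares were 6.63% in 2KO and 10.1% in control cells. The kept share was 57.1% of the control-marked genes here and 55.5% over all genes, so it stood near the background. Of 12 genes listed as ligand secretion factors or other extracellular inhibitors, 3 were in both lists (Notum, Sost and Vwc2). A further 1, Draxin, was in the control list only. Among them, Notum, which removes the lipid of Wnt ligands, had 3.75 kb in 2KO and 4.80 kb in control cells, and Sost, which encodes the Lrp5 and Lrp6 inhibitor sclerostin, had 4.64 kb in 2KO and 9.58 kb in control cells. Of 20 cytoplasmic genes, 4 were in the control list only and 0 in both lists. Over all genes, 970 were in the control list only and 1210 in both. Nkd1 (7.58 kb), Nkd2 (3.47 kb), Dact1 (3.76 kb) and Dact2 (5.82 kb), which encode Dishevelled-binding proteins, had control peaks and no 2KO peak within 1 kb of a gene end. Apc2 had a mark at its end in 2KO cells alone, from a peak of 6.98 kb of which 77.6% lay under control peaks. This call rests on the 1 kb window. The nearest peak lay 408 bp from a gene end in 2KO cells and 1341 bp in control cells, and each list had 2 peaks over the gene. The remaining 15 cytoplasmic genes, Ctnnb1, Apc, Axin1, Axin2 and the Dvl and Gsk3 genes among them, were unmarked.

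Among co-receptors and R-spondin receptors, 2 of 19 were marked in 2KO cells (10.5%, 2.94 to 31.4) and 3 in control cells (15.8%, 5.52 to 37.6). These intervals include the shares over all genes, 6.63% in 2KO and 10.1% in control cells. Lgr5, the R-spondin receptor of hair follicle stem cells, had 7.98 kb in 2KO and 11.0 kb in control cells, and Adgra2, a co-receptor in brain vessels, 4.81 kb in 2KO and 9.81 kb in control cells. Ror2, a receptor of Wnt5a, had its nearest 2KO peak 763 kb away and a control domain of 16.5 kb (chr13:53282120-53298660). Both Wnt5a and Ror2 were in the control list only, as were 970 of all 2180 control-marked genes. Lrp5, Lrp6, Znrf3 and Rnf43 were unmarked. Of 14 nuclear effectors and cofactors, Sp5 and Sp8, zinc finger targets of the pathway, were marked in each list (14.3%, 4.01 to 39.9). This interval also includes both all-gene shares. Tcf7, Lef1, Tcf7l1 and Tcf7l2 were unmarked, the usual state over all genes. Sp5 had 13.1 kb in 2KO and 17.8 kb in control cells, and Sp8 5.55 kb in 2KO and 30.5 kb in control cells, where 18.2% of the control domain lay under 2KO peaks. The remaining marked genes were Celsr3 (10.6 kb in 2KO and 6.41 kb in control cells), Vwc2 (5.43 kb in 2KO and 7.89 kb in control cells) and Draxin (2.47 kb, control list only). Whether Vwc2 acts in Wnt signalling was not examined here. Over the 8 other pathway genes in both lists, 1 had a longer called length in 2KO cells and 7 a shorter one. Over all genes in both lists, 682 were longer and 528 shorter in 2KO cells. The control called length had a median of 9695 bp at the 8 genes and 6840 bp over all genes in both lists. Whether the shortening goes with width was not tested.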

How the data were processed

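H3K27me3 chromatin immunoprecipitation was sequenced in 2KO and control cells (2 labelled libraries each). The submitters' processing notes name Bowtie2 2.3.3.1, SAMtools 1.9 and the build mm10. For each genotype the authors deposited a list of peak positions (chromosome, start, end) with no score. How peaks were called, at which threshold, with which input and from which replicates is not given in the sources used here, and a stricter threshold or lower depth in either list would remove peaks.

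Starts, taken as 0-based, were converted to 1-based positions. Gene positions came from RefSeq on GRCm38.p6, the same build, and start sites, strands and sequences from a RefSeq promoter table that held 29 of the 43 genes and 17274 of all 21631. Genes were matched by symbol. Overlap of at least 1 bp with a gene end extended by 1 kb defined a mark. Retention is the percent of control peak bases under 2KO peaks. Interval code in Python 3.11.15 (numpy 2.4.6, pandas 2.3.3, scipy 1.17.1, matplotlib 3.10.9) was tested on simulated data made from the control list. The 43 genes and the other lists were chosen with earlier results of these data known. All 43 genes are named, and of the 75 other pathway genes those marked in either list, with unmarked ones as examples chosen after their values were seen. The printed promoters were chosen after their marks were known. Alternatives covered the window, the target at the gene, the overlap, a minimum width, equal numbers of peaks and merging.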

Additional observations from a re-analysis of the deposited data

How the results depend on the processing

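No paired analysis was possible because the deposited peaks carry no values per replicate, and no replicate could be left out for the same reason. With windows of 0 or 5 kb, the gene body, an overlap of at least 500 bp or merging within 3 kb, 10 to 11 of the 43 genes were marked in 2KO cells and 19 to 20 in control cells, with 52.6 to 55% kept. Under these settings 5.44 to 9.02% of all genes were marked in 2KO and 8.62 to 12.3% in control cells, with 54.4 to 58.5% kept. With a window of 0, Sfrp1 was marked in control cells only and Rspo3 in neither. With peaks of at least 5 kb, 9 genes were marked in 2KO and 11 in control cells, since narrow peaks are left out by construction. Then 10 of the 43 changed class, 6 were in both lists, and 54.5% were kept. Over all genes, 4.59% were marked in 2KO and 5.8% in control cells, with 57.2% kept. With 2340 peaks in each list, 11 were marked in 2KO and 15 in control cells (53.3% kept), and over all genes 6.63% in 2KO and 7.46% in control cells (63% kept). The median log2 ratio of called length was -0.09 under both of these settings and 0.00 to 0.13 under the others. The share of control bases under 2KO peaks stayed within 51.5 to 55.1% under all 8 alternatives. Of 139 reruns for single genes, 136 stayed within 10 percentage points, the exceptions being Sfrp4 (72 and 76.8%, with a 5 kb window and with merging) and Sfrp1 (0%, with peaks of at least 5 kb). By start site alone, 29 genes could be used, 8 marked in 2KO and 14 in control cells (50% kept), with Wnt8b in the 2KO list only. Of all 17274 genes with a start site, 5.53% were marked in 2KO and 8.75% in control cells, with 54% kept. Depth is unknown and limits what an absent call means.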

Other observations

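Several unmarked or partly marked pathway genes lay close to peaks that the 1 kb window left out. Dact3, the third Dact gene, had its nearest 2KO peak at 395 kb and a control peak 5084 bp from the gene. At Nkd1 the nearest 2KO peak lay 5896 bp from the gene, where the control peak reached the gene end. Tcf7l1, which encodes a repressive TCF factor of skin progenitors, had its nearest 2KO peak at 1670 kb and its nearest control peak at 11.1 kb. Dvl2 showed the reverse order, with its nearest 2KO peak at 11.9 kb and its nearest control peak at 33.6 kb. Prickle2, unmarked at its ends, had a control peak inside the gene and its nearest 2KO peak at 105 kb. These genes were chosen after their values were seen.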
